A study of Mus musculus with 21 samples.

Results

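The genes described are 40 that copy DNA in S phase or open the way into it. They were taken by symbol from a list covering origin licensing, helicase activation, the sliding clamp and its loader, single-strand binding and the polymerases, Okazaki fragment joining, deoxynucleotide supply, chromatin assembly behind the fork and the G1 to S switch. All 40 were present in each of the 3 expression tables, among 14178, 15623 and 13949 genes, and all 40 passed the filter on low values in each. Their values are RNA levels in mouse acute myeloid leukaemia (AML) cells, so they describe transcripts and not the rate of DNA synthesis.

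The study sequenced RNA from 21 libraries of established mouse AML lines in 8 groups. NUP98-NSD1 cells, transformed by a flag-tagged fusion of a nucleoporin with a histone methyltransferase, were given DMSO, UNC1999 or JQEZ5 at 3 µM for 4 days (3 libraries each). Cells of the same line carried the pLKO.1-puro lentivirus with no insert (shEV) or with an shRNA against Kdm5b (shKdm5b) and were selected with puromycin (3 libraries each). The second line had been transformed by flag-tagged MLL-AF9, and its cells received the MSCV-neo retrovirus with no insert (EV), with wild-type Kdm5b (Kdm5b_WT) or with its demethylase-dead mutant (Kdm5b_H499A) (2 libraries each). Every group grew in medium with serum and stem cell factor from secreting hamster cells. UNC1999 and JQEZ5 inhibit PRC2, the complex that methylates lysine 27 of histone H3, and Kdm5b removes methyl groups from lysine 4 of histone H3. The labels do not say how many clones a line or a transduced population holds, or whether replicates were separate cultures. If they were not, the p-values measure only the spread between these libraries, which may be technical.

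Replication is prepared in G1, when the origin recognition complex, Cdc6 and Cdt1 load the ring of Mcm2 to Mcm7 onto DNA. At the start of S phase Cdc45 and the GINS complex join that ring to make the active helicase, and Mcm10 helps to switch it on. The clamp loader RFC places Pcna on the template, RPA coats the single strand, and DNA polymerases alpha, delta and epsilon copy it. Many of these genes are transcribed by E2F factors once cyclin-dependent kinases release them from the RB family, and proliferating leukaemia cells express them at high levels. In RNA from a whole population, fewer cells in S phase and less RNA per cell cannot be told apart.

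E2F factors bind short sites close to transcription starts, so the 250 bases before each RefSeq start were searched for them. RefSeq promoters of build GRCm38.p6 were held for 32 of the 40 genes. The motifs were TTTCCCGC, TTTGGCGC, TTTCGCGC and TTTGCCGC, read on both strands, and the matches overlap one another in Mcm6 and Mcm5. At least 1 match was present in 8 of the 32 genes (25%), against 583 of 27025 genes in the whole table (2.16%). TTTCGCGC was found in 4 of the 32, TTTCCCGC and TTTGGCGC in 3 each, and TTTGCCGC in none. The matched stretches are shown because these are the genes in which an exact E2F word lies in that window. The matches lay between 3 bases (Rfc3) and 165 bases (Mcm7) before the start. Capitals mark the matches and each sequence is read 5′ to 3′ on the strand of its gene.
Mcm6, chr1:128359715-128359845, minus strand: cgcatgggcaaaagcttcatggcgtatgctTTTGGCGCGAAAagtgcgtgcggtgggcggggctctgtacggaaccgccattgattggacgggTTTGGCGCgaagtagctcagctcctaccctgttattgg
Mcm5, chr8:75109326-75109397, plus strand: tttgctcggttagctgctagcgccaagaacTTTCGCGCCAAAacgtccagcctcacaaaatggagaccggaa
Cdc6, chr11:98907983-98908050, plus strand: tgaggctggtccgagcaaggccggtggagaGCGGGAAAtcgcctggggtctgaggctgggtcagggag
Pola1, chrX:93632256-93632323, minus strand: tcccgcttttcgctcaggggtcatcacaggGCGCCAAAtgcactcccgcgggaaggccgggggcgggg
Mcm7, chr5:138172030-138172059, minus strand: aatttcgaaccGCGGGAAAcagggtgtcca
Gins3, chr8:95633507-95633536, plus strand: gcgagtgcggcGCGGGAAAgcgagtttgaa
Orc1, chr4:108579416-108579445, plus strand: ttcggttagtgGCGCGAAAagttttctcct
Rfc3, chr5:151651209-151651229, minus strand: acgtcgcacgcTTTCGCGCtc

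In GENCODE M21 the Mcm6, Mcm5 and Pola1 stretches lie in no annotated gene, and the Cdc6 stretch lies in an intron of Cdc6. The Orc1, Rfc3, Gins3 and Mcm7 stretches overlap an annotated exon of the gene itself, and that of Mcm7 also an exon of Ap4m1 on the other strand. The window before another RefSeq start of Mcm7 held no match. Mcm6 held 3 matches within 110 bases of its start, and the match in Rfc3 ended 3 bases before the start. A CCAAT box was present in 20 of 32 genes (62.5%) against 37.5% of all genes, and the GC box GGGCGG in 22 of 32 (68.8%) against 35.4%. The CHR element TTTGAA or TTCGAA, known from promoters of late cell cycle genes, was present in 6 of 32 (18.8%) against 19.6%. These matches describe letters in a window and not measured binding.

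Libraries held 12812646 to 18928764 recovered reads with the inhibitors, 21273211 to 34813867 in the knockdown and 17341257 to 19973218 in the overexpression. Levels below are normalised read counts recovered from the deposited log2 values, and differences are given as ratios of group means and as log2 differences on the deposited scale. That scale is compressed at low counts, so the log2 difference is smaller than the logarithm of the ratio. Kdm5b itself fell from 74.5 ± 17.8 (SD, n = 3) in shEV to 28.7 ± 5.44 in shKdm5b, a level under the filter on low values (adjusted p = 0.00401 in the limma fit of all genes). The shEV libraries held 71 to 112 recovered reads of Kdm5b and the DMSO libraries 534 to 632. With the inhibitors Kdm5b was at 607 ± 14.9 in DMSO, 658 ± 8.64 with JQEZ5 and 886 ± 14.7 with UNC1999 (SD, n = 3). It was thus 1.46 times DMSO with UNC1999 (adjusted p = 1.65e-07, limma) and not called with JQEZ5. In MLL-AF9 cells Kdm5b was at 121 ± 9.89 in EV, 1413 ± 4.48 in Kdm5b_WT and 294 ± 21.5 in Kdm5b_H499A (SD, n = 2), so the wild-type and the mutant were not present at matched RNA levels. All 10 markers of the myeloid leukaemia list, among them Ptprc, Spi1, Kit and Mpo, were present in every table, while Gata1, Cd3e and Col1a1 were in none of them. Other markers of those cells were present, namely 4 to 6 of 10 of the erythroid and megakaryocyte list, 2 of 11 of the B, T and NK cell list and 1 to 3 of 8 of the stromal and endothelial list.

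On a scale per length of exon and per depth, Mcm3, Mcm6 or Pcna ranked first of the 40 transcripts in every group. In DMSO the level was highest for Mcm6, at 89.7 ± 0.651 RPKM (SD, n = 3), that is reads per kilobase of exon scaled to depth, followed by Mcm3 at 87.2 ± 0.776, Pcna at 73.0 ± 2.21 and Rrm2 at 64.2 ± 0.608. The lowest were Pole, the catalytic subunit of polymerase epsilon, at 3.38 ± 0.0739, and the GINS subunit Gins3 at 3.90 ± 0.293. Mcm3 led in shEV at 157 ± 1.44, with Pole again last at 6.53 ± 0.163. Pcna led in EV at 256 ± 0.224 (SD, n = 2), with Gins3 last at 7.94 ± 0.184. Of the 39 pairs of neighbours in this order, 18 did not overlap between libraries in DMSO, 21 in shEV and 30 in EV. Much of the order is thus not resolved in DMSO and shEV. Ranges of 2 libraries overlap less readily than those of 3, so the EV count is not comparable with the other counts. Lengths are those of all annotated exons together, which lowers the level of genes with long or rare exons. The experiments were normalised separately and levels are not compared across them.

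**Figure D1:**
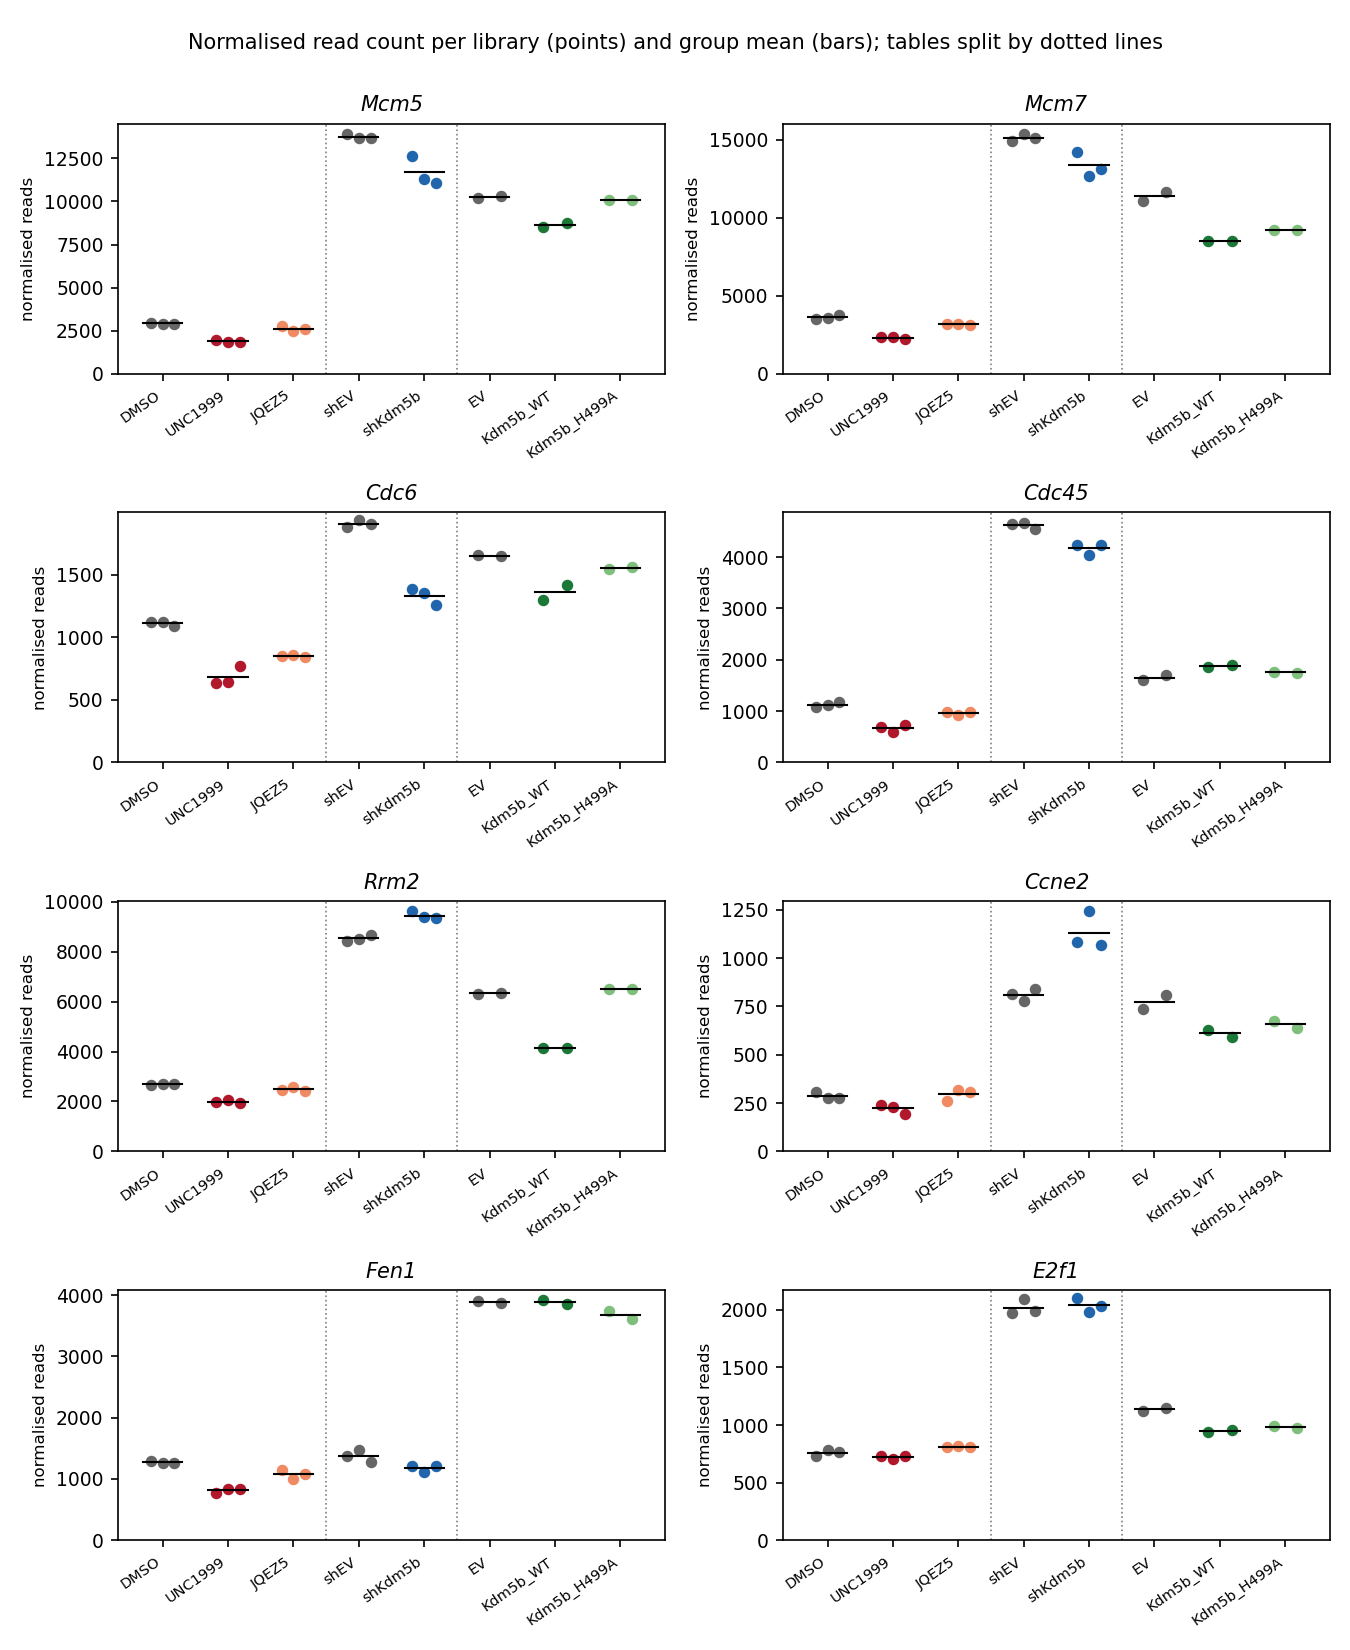
Normalised read count (vertical axes, from 0) of 8 replication genes in each library (points) with the group mean (bars) for the 8 groups (horizontal axes), dotted lines parting the separately normalised tables. Rrm2 lies at 4124 and 4136 in the Kdm5b_WT libraries, under 6294 and 6365 in EV, and Fen1 lies at 3925 and 3856 against 3907 and 3880.

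Summed over the 40 genes, the share of reads was 0.390% to 0.394% in DMSO, 0.349% to 0.351% in JQEZ5 and 0.266% to 0.274% in UNC1999. In the knockdown it was 0.701% to 0.703% in shEV and 0.658% to 0.678% in shKdm5b. In MLL-AF9 cells it was 0.835% and 0.843% in EV, 0.777% and 0.779% in Kdm5b_H499A, and 0.700% and 0.710% in Kdm5b_WT. No treated library reached the range of its controls, and the gap was narrowest for the knockdown.

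**Figure D2:**
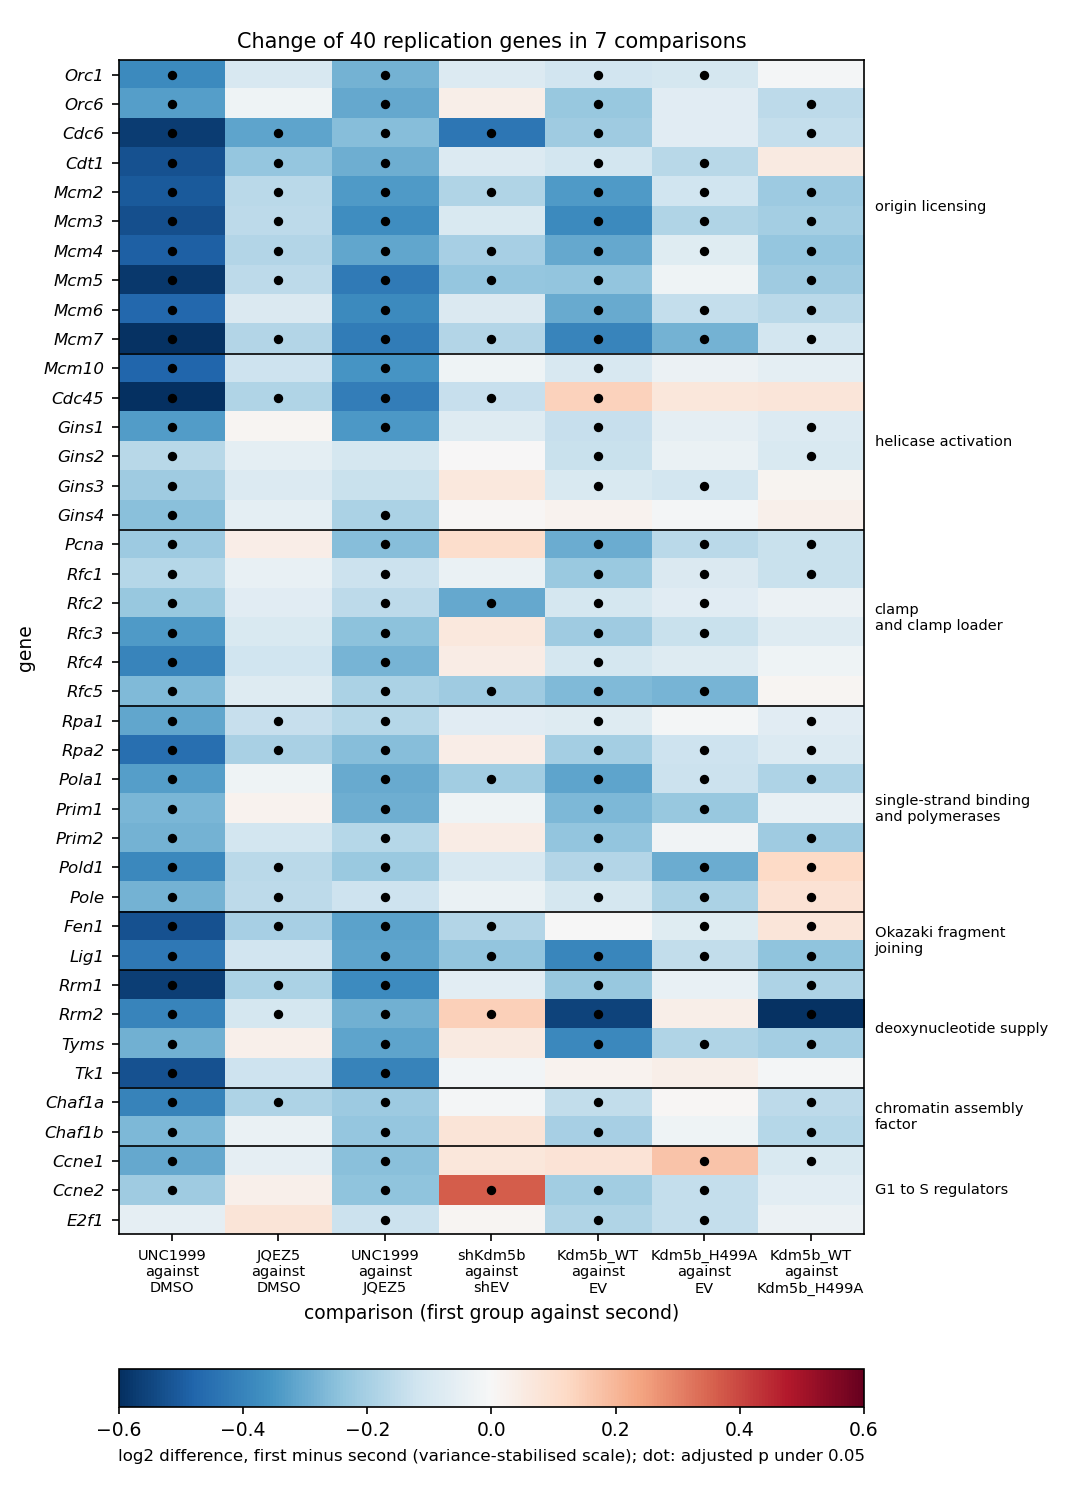
Log2 difference on the deposited scale (colour) for the 40 replication genes (rows, grouped by role) in the 7 comparisons (columns), with a mark where the adjusted p of limma was under 0.05. The UNC1999 columns are lower almost throughout, the shKdm5b column is mixed, and Kdm5b_WT is lower than EV for 35 genes.

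The first question was how the replication genes responded to UNC1999. With UNC1999 39 of the 40 genes were lower than in DMSO and none was higher (limma, Benjamini-Hochberg adjusted over all genes), while 24% of all genes tested were lower and 23.9% higher (47.9% in either direction). The median log2 difference of the 40 was -0.36, against -0.01 for all 10694 genes tested. Ratios to DMSO ran from 0.600 for Cdc45 to 0.953 for E2f1, the gene that was not called.

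All 10 licensing genes fell with UNC1999. Mcm3, a subunit of the helicase ring, was at 4895, 4987 and 4986 normalised counts in DMSO and at 3345, 3355 and 3405 with UNC1999. The UNC1999 libraries were all far below the DMSO libraries, for a ratio of 0.680 and a log2 difference of -0.53 ± 0.03 (SE, adjusted p = 2.22e-10, limma). Mcm7 showed the largest log2 difference of the ring, -0.60 ± 0.03, at 3509, 3594 and 3747 in DMSO and 2343, 2375 and 2234 with UNC1999. The other ring subunits Mcm2, Mcm4, Mcm5 and Mcm6 were at 0.644 to 0.712 times DMSO. The loading factors fell too: Orc1 to 0.610, Cdc6 to 0.613 and Cdt1 to 0.637 times DMSO.

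Helicase activation was less even. Cdc45 (GRCm38 chr16:18780447-18811987, minus strand), which holds the ring and GINS together, was at 1083, 1119 and 1171 in DMSO and at 694, 598 and 732 with UNC1999, without overlap. Its ratio of 0.600 was the lowest of the 40 (log2 difference -0.60 ± 0.05, adjusted p = 1.38e-07, limma). Mcm10 fell to 0.640 and Gins1 to 0.643 times DMSO. Gins2 fell least of the group, to 0.865, with 841, 1066 and 966 in DMSO and 839, 781 and 867 with UNC1999. Those libraries overlapped, and the call (adjusted p = 0.0286, limma) was lost without DMSO replicate 2 or 3 or UNC1999 replicate 2. Exons of Gins2 share 2758 of 4097 bases with Gse1 on the other strand, and whether counting used the strand is not given in the sources used here, so its level is uncertain. The same limit holds for Orc1, which shares 376 of 3479 exon bases with Gm12743, and for Rfc4, which shares 194 of 1533 with Eif4a2. Pcna and Tyms have annotated pseudogenes that could share their reads.

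Clamp and clamp loader transcripts fell by smaller amounts, from 0.665 times DMSO for Rfc4 to 0.876 for Rfc1. Rfc4, a small RFC subunit, was at 484, 483 and 460 in DMSO and at 327, 332 and 289 with UNC1999, without overlap (log2 difference -0.40 ± 0.05, adjusted p = 4.16e-06, limma). Pcna, the clamp itself, was at 2609, 2741 and 2611 against 2333, 2135 and 2284, also without overlap, for a ratio of 0.848. Among the single-strand binding and polymerase genes all 7 fell, with Rpa2 the most, at 848, 824 and 822 in DMSO and 559, 545 and 555 with UNC1999. The ratio of Rpa2 was 0.665 (log2 difference -0.45 ± 0.04, adjusted p = 1.38e-07, limma), and that of the catalytic subunits was 0.717 for Pold1, 0.744 for Pola1 and 0.761 for Pole.

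Both genes of Okazaki fragment joining fell. Fen1, the flap endonuclease, was at 1288, 1266 and 1254 in DMSO and at 779, 838 and 840 with UNC1999 (ratio 0.645, adjusted p = 7.55e-08, limma), and Lig1, the ligase that seals the nick, was at 0.694. Exons of Fen1 share 1909 of 2422 bases with the antisense gene Gm10143, with the same limit on strand. Rrm1, the large subunit of ribonucleotide reductase, was at 3703, 3647 and 3692 in DMSO and at 2398, 2472 and 2376 with UNC1999. The ranges lay far apart, for a Rrm1 ratio of 0.656 (log2 difference -0.56 ± 0.03, adjusted p = 2.90e-10, limma), and the small subunit Rrm2 was at 0.740. Tk1 and Tyms, which supply thymidine nucleotides, fell to 0.638 and 0.776.

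Chaf1a and Chaf1b, subunits of the factor that places histones on new DNA, fell to 0.713 and 0.765 times DMSO. Chaf1a was at 1057, 1019 and 1034 in DMSO and at 675, 664 and 877 with UNC1999, a wide spread that stayed under DMSO, and 4648 of its 8854 exon bases overlap Ubxn6 on the other strand. The cyclins that drive entry into S phase also fell, Ccne1 from 741, 707 and 722 to 539, 526 and 573 (ratio 0.755) and Ccne2 to 0.782. E2f1, their partner in the switch and a transcriptional activator of many of the other 39, was at 732, 779 and 764 in DMSO and at 734, 703 and 732 with UNC1999. Those libraries overlapped, and the interval of its log2 difference was -0.13 to 0.03 (adjusted p = 0.256, limma).

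JQEZ5 at the same dose and time gave a smaller shift. Of the 40 genes 16 were lower than in DMSO and none was higher, against 10.5% of all genes lower and 13.1% higher (23.6% in either direction), and the median log2 difference was -0.11 against 0.01 for all genes. Licensing genes made up 7 of the 16, namely Cdc6, Cdt1, Mcm2, Mcm3, Mcm4, Mcm5 and Mcm7. Cdc6 was at 1125, 1121 and 1089 in DMSO and at 850, 857 and 845 with JQEZ5, narrow ranges that lay well apart. Its ratio of 0.765 was the lowest of the 40 (log2 difference -0.32 ± 0.05, adjusted p = 0.000244, limma). Mcm6 was not called at 0.939 times DMSO (adjusted p = 0.0516, limma).

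The remaining falls with JQEZ5 were spread over the fork. Cdc45 was at 992, 932 and 979, under DMSO in every library (ratio 0.861, adjusted p = 0.01998, limma), but the call was lost without DMSO replicate 2 or 3 or JQEZ5 replicate 2. Rpa2 was at 712, 669 and 720 (ratio 0.842), Rpa1 at 0.897, Pold1 at 0.872 and Pole at 0.861, each a fall past the test. Pold1 lost its call without DMSO replicate 2 or JQEZ5 replicate 2 or 3, and Pole without DMSO replicate 1 or 3 or JQEZ5 replicate 2. Fen1 was at 1141, 1005 and 1089 (ratio 0.849), and Rrm1 at 3135, 3234 and 3232 (ratio 0.869, adjusted p = 0.000194, limma), both below all DMSO libraries. Rrm2 (0.923) and Chaf1a (0.855) also passed. Chaf1a lost its call when any 1 of the 6 libraries was left out, and Rrm2 when any 1 but JQEZ5 replicate 2 was.

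No gene of the clamp and clamp loader was called with JQEZ5. Rfc4 was the closest, at 417, 419 and 431 against 484, 483 and 460 in DMSO, without overlap but with an adjusted p of 0.0787 (limma). Pcna was at 2592, 2875 and 2742, around the DMSO values, with an interval of -0.05 to 0.13 for its log2 difference. None of the G1 to S regulators was called: Ccne1 was at 0.952 times DMSO, Ccne2 at 1.04 and E2f1 at 1.07, where 810, 814 and 810 stood above all 3 DMSO libraries (adjusted p = 0.168, limma).

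**Figure D3:**
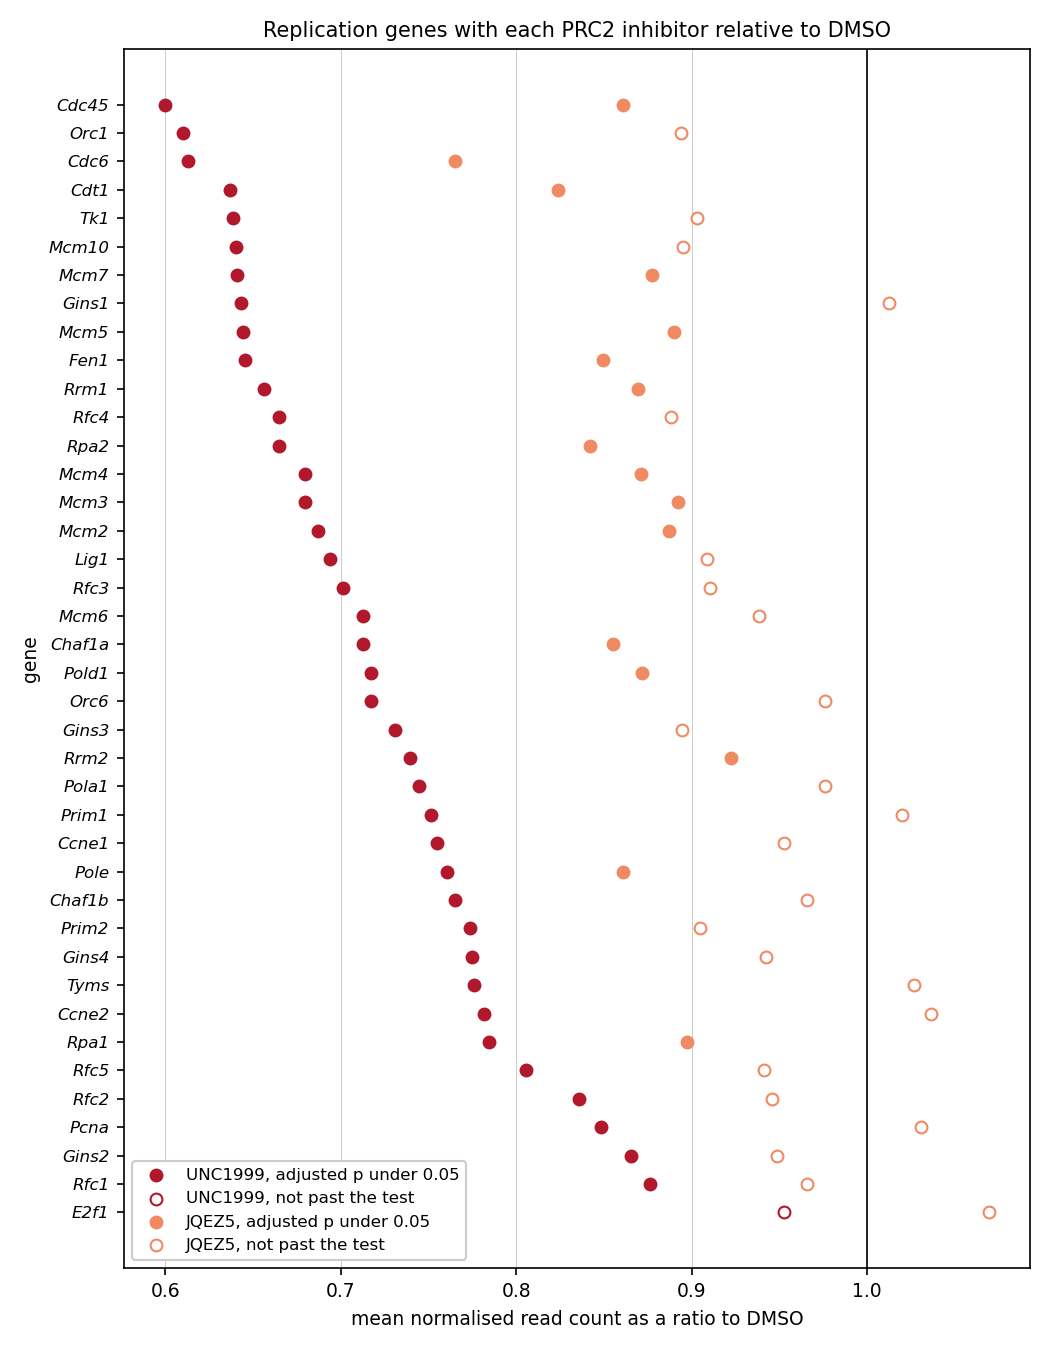
Mean normalised read count with UNC1999 (dark points) and with JQEZ5 (light points) as a ratio to DMSO (horizontal axis) for the 40 genes (vertical axis), 3 libraries per group, filled where adjusted p was under 0.05. The dark points lie left of the light ones for every gene, from 0.600 for Cdc45 to 0.953 for E2f1.

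The compounds were compared directly at 3 µM and 4 days, 1 pair of the 3 that the inhibitor experiment allows. UNC1999 was lower than JQEZ5 for 38 of the 40 genes and higher for none, against 17.7% of all genes lower and 18.7% higher (36.4% in either direction), with a median log2 difference of -0.28. All 16 genes that fell with JQEZ5 were lower still with UNC1999. Of these, Pole lost that call under median centring, quantile normalisation, the replicate block and a fit of only the 2 groups, and without JQEZ5 or UNC1999 replicate 1 or 3. Chaf1a lost it without JQEZ5 replicate 3 or UNC1999 replicate 1 or 2. Mcm3 was at 4466, 4383 and 4416 with JQEZ5 and at 3345, 3355 and 3405 with UNC1999 (log2 difference -0.37 ± 0.03, adjusted p = 6.34e-08, limma). Cdc45 differed by -0.42 ± 0.05, Rrm1 by -0.38 ± 0.03 and Fen1 by -0.32 ± 0.04 on the log2 scale, each with no overlap between the compounds. The widest ratio was that of Gins1, at 212, 216 and 239 with JQEZ5, close to DMSO, and at 144, 156 and 124 with UNC1999, a ratio of 0.635.

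Chaf1b (ratio 0.792), Rpa2 (0.790), Pcna (0.823) and Ccne1 (0.792) were lower with UNC1999 than with JQEZ5 without overlap between libraries. E2f1 was lower too, at 0.891 times JQEZ5 (adjusted p = 0.0133, limma), although neither compound differed from DMSO past the test, and that call was lost without UNC1999 replicate 2. The genes not called between the compounds were Gins2, with an interval of -0.23 to 0.02, and Gins3, with an interval of -0.26 to -0.01 and an adjusted p of 0.0880 (limma). These intervals do not show that the compounds act alike on them. Both compounds were compared with the same DMSO libraries, and 1 dose and 1 time were measured.

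Genes of the same pathway outside the 40 were counted from lists of 37 further replication factors, 17 further nucleotide and chromatin genes and 31 further genes of G1 to S control. Of the replication factors 28 fell and none rose with UNC1999, 6 fell and none rose with JQEZ5, and 24 were lower with UNC1999 than with JQEZ5. The lower shares were 75.7%, 16.2% and 64.9% of the 37, against 24%, 10.5% and 17.7% of all genes tested. Dna2, a nuclease that trims Okazaki flaps, was at 0.623 times DMSO with UNC1999 and 0.833 with JQEZ5, and the checkpoint mediator Clspn at 0.681 and 0.863. Of the nucleotide and chromatin genes 16 of 17 fell with UNC1999 and 8 with JQEZ5. Uhrf1, which recruits maintenance DNA methylation to new DNA, was at 0.726 and 0.899, while Samhd1, which degrades deoxynucleotides, was at 0.742 times DMSO with JQEZ5.

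G1 to S control moved in both directions. With UNC1999 5 of the 29 tested genes rose and 16 fell, and with JQEZ5 5 rose and 8 fell. For UNC1999 that is 17.2% and 55.2%, against 23.9% and 24% of all genes tested. For JQEZ5 it is 17.2% and 27.6%, against 13.1% and 10.5%. Cdkn2a, whose products inhibit Cdk4 and Cdk6 and stabilise p53, had 89.8 to 114 normalised counts in DMSO, 154 to 160 with JQEZ5 and 275 to 332 with UNC1999. That is a ratio of 2.99 with UNC1999 (adjusted p = 1.50e-08, limma) and 1.57 with JQEZ5 (adjusted p = 0.00143, limma). Tfdp1, the DNA-binding partner of E2F factors, fell to 0.742 and Rbl1, a pocket protein, to 0.693 times DMSO with UNC1999. Ccnd2, a D-type cyclin, rose to 1.66 times DMSO with JQEZ5 and 1.90 with UNC1999.

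Monocyte and macrophage markers moved with these groups. Of 14 listed, 13 were in the table and none was at 0, and their summed counts were 126972 to 128798 in DMSO, 239894 to 242784 with JQEZ5 and 343029 to 357690 with UNC1999. With UNC1999 12 of the 13 were higher and none lower, and with JQEZ5 12 were higher and 1 lower. Of all genes tested, 23.9% were higher with UNC1999 and 13.1% with JQEZ5. Neutrophil granule markers (8 of 10 in the table) summed to 16965 to 17470 in DMSO, 21940 to 23319 with JQEZ5 and 24800 to 25562 with UNC1999, and of the 6 tested 5 were higher and 1 lower with UNC1999. The highest ratio to DMSO among these 6 was 27.9. A gene under the filter in DMSO enters the test only if a compound raises it. The calls of the neutrophil list are therefore not taken as support. The 10 myeloid leukaemia markers summed to 108790 to 112643 in DMSO, 111423 to 113742 with JQEZ5 and 90990 to 93370 with UNC1999, with 1 higher and 6 lower with UNC1999. The part of any of these lists in the lower replication transcripts was not tested.

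Knockdown of Kdm5b in the same line split the list. With shKdm5b 2 genes were higher than in shEV and 11 lower, against 15% of all genes higher and 17.4% lower (32.5% in either direction), so the share that changed was near that of genes at large. The median log2 difference was -0.04, and -0.01 for all 10810 genes tested. The lower genes were Cdc6, Mcm2, Mcm4, Mcm5, Mcm7, Cdc45, Rfc2, Rfc5, Pola1, Fen1 and Lig1, and the higher ones Rrm2 and Ccne2. The count of lower genes was 6, 5 and 7 without shEV replicate 1, 2 and 3, and Rrm2 lost its call without any 1 of those libraries, which left 1 higher gene. Over all single libraries left out, the count of lower genes ran from 5 to 16. Reads of shKdm5b replicate 1 differed most from its replicates, with chi-square per degree of freedom of 18.3 and 17.0, against 6.75 between replicates 2 and 3. Without it, 2563 of all genes tested were called higher and 2993 lower, in place of 1624 and 1885.

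**Figure D4:**
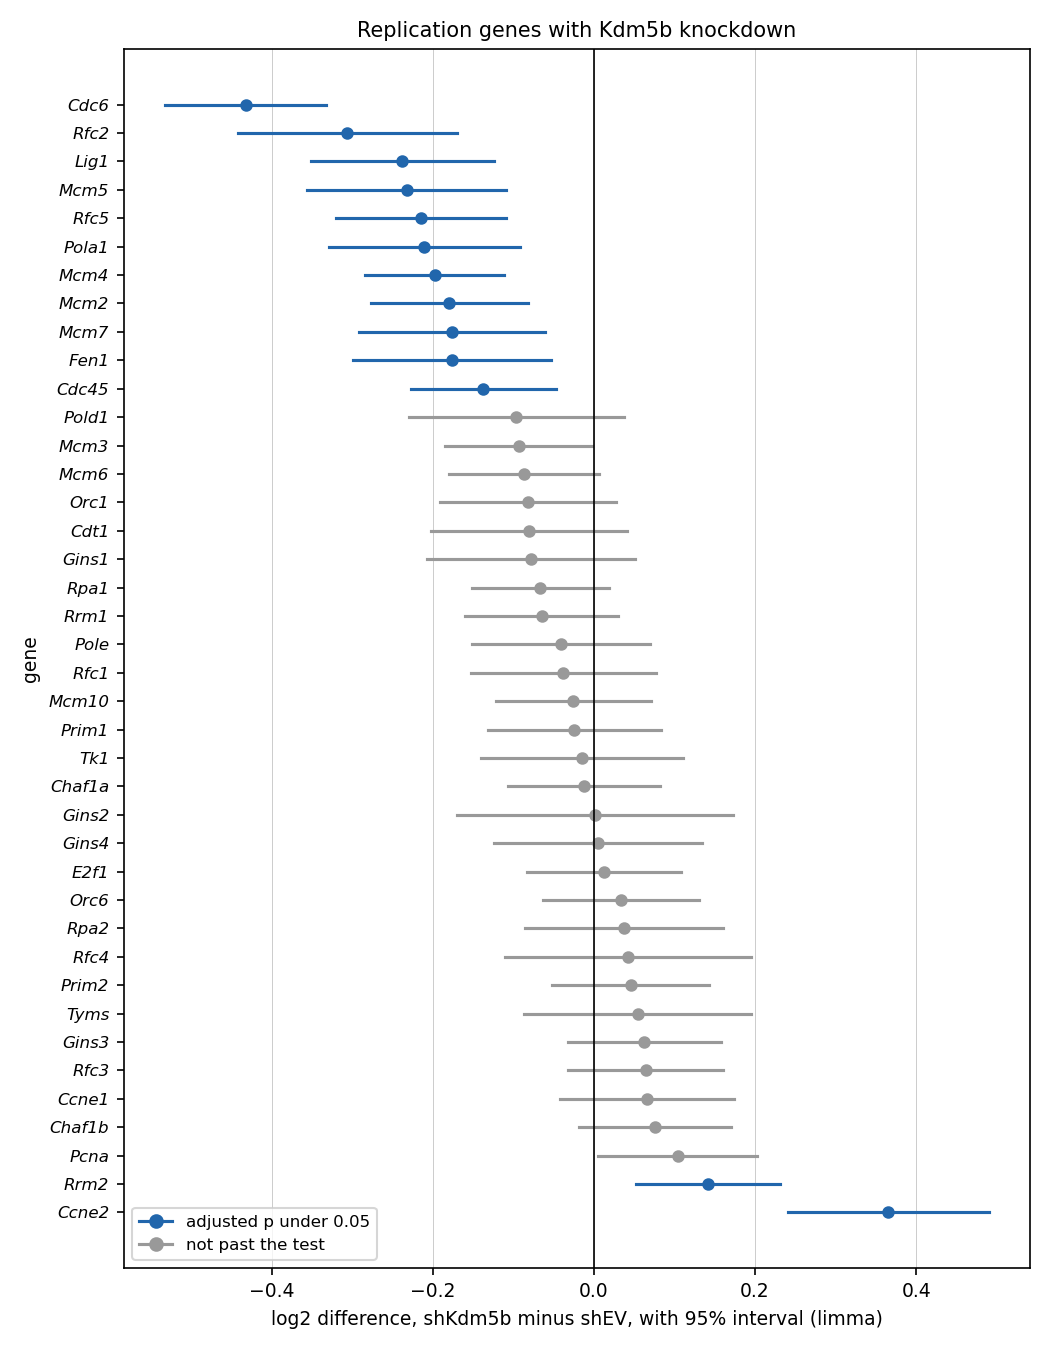
Log2 difference between shKdm5b and shEV with its 95% interval from limma (horizontal axis) for the 40 genes (vertical axis), 3 libraries per group, coloured where adjusted p was under 0.05. Cdc6 stands lowest at -0.43 and Ccne2 highest at 0.37, and most intervals cross 0.

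Cdc6, the ATPase that brings the helicase ring to origins, gave the clearest fall. It was at 1876, 1931 and 1903 in shEV and at 1382, 1353 and 1255 in shKdm5b, well apart, for a ratio of 0.699 (log2 difference -0.43 ± 0.04, adjusted p = 0.000186, limma). Among the ring subunits Mcm4 was at 7389, 7477 and 7423 against 6303, 6492 and 6517, and Mcm5 at 13925, 13701 and 13663 against 12654, 11306 and 11099. The call of Mcm5 was lost without any 1 shEV library. Mcm3 and Mcm6 were not called at 0.936 and 0.940 times shEV. Cdc45 was at 4641, 4666 and 4538 against 4235, 4035 and 4229, a ratio of 0.903 whose libraries did not overlap (adjusted p = 0.0282, limma). None of the 4 GINS genes was called, with ratios of 0.933 for Gins1 to 1.07 for Gins3. Cdc45 lost its call without any 1 shEV library or without shKdm5b replicate 2.

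Rfc2 was at 6696, 6558 and 6447 in shEV and at 5809, 5021 and 4953 in shKdm5b (ratio 0.801, adjusted p = 0.00545, limma), and Rfc5 was at 0.853. Both have exons that overlap a gene on the other strand, by 15.1% and 10.7% of their exon bases. Pcna was not called at 1.08 times shEV. Pola1, the catalytic subunit of polymerase alpha, was at 2379, 2486 and 2504 against 1936, 2233 and 2076, and it was the only gene called of the 7 for single-strand binding and polymerases. Its call was lost without shEV replicate 2 or 3. Lig1 was at 4772, 4618 and 4715 against 4156, 4007 and 3661 (ratio 0.838, adjusted p = 0.00767, limma), and Fen1 at 0.859. Fen1 lost its call without shEV replicate 1 or 2 or shKdm5b replicate 2 or 3.

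The 2 genes that rose were 1 of the 4 for deoxynucleotide supply and 1 of the 3 G1 to S regulators. Rrm2 was at 8430, 8495 and 8691 in shEV and at 9640, 9383 and 9334 in shKdm5b, above every control library (ratio 1.11, adjusted p = 0.0243, limma). Ccne2 (GRCm38 chr4:11191351-11204779, plus strand) was at 814, 777 and 841 against 1086, 1242 and 1069, a ratio of 1.40 (log2 difference 0.37 ± 0.06, adjusted p = 0.00146, limma), and 609 of its 3495 exon bases overlap Ints8 on the other strand. Chaf1b had the lower p of the chromatin assembly genes, at 1873, 1945 and 1966 against 2119, 2044 and 1988, and was not called (adjusted p = 0.189, limma). E2f1 was at 1973, 2094 and 1988 against 2101, 1981 and 2037, overlapping, with an interval of -0.08 to 0.11.

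Outside the 40, 4 of 37 replication factors were higher (10.8%) and 3 lower (8.11%) with shKdm5b, under the 15% and 17.4% of all genes tested. Among them Top1 was at 0.750 and the small polymerase subunits Pole3 and Pold3 at 1.15 and 1.16 times shEV. None of the 17 nucleotide and chromatin genes was higher and 5 were lower, led by Cad, the enzyme that starts pyrimidine synthesis, at 0.602 (adjusted p = 1.44e-05, limma), Impdh2 at 0.801 and Dnmt1 at 0.839. Of 29 tested genes of G1 to S control 10 rose and 1 fell, with the repressor E2f6 at 1.55, the Cdk4 and Cdk6 inhibitor Cdkn2c at 1.41 and Ccnd2 at 1.27 times shEV. Monocyte and macrophage markers summed to 75209 to 76446 in shEV and 60397 to 68836 in shKdm5b, with 4 of 13 higher and 8 lower. Neutrophil granule markers (7 of 10 in the table) went the other way, with sums of 16316 to 16869 in shEV and 28677 to 37750 in shKdm5b, with all 3 tested genes higher. Of 8 mast cell, basophil and eosinophil markers 2 were in the table, and they summed to 85.1 to 102 in shEV and 2499 to 2840 in shKdm5b, while Fcer1a, Cpa3 and Gata2 were not in it. Only 1 of the 2 was tested, at 36.7 times shEV, so the sums do not describe that list as a whole. The part of these lists in the replication values was not tested.

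Kdm5b was then raised in MLL-AF9 cells. With Kdm5b_WT 35 of the 40 genes were lower than in EV and 1, Cdc45, was higher, against 32.4% of all genes lower and 29.8% higher (62.2% in either direction). The median log2 difference was -0.21, and -0.01 for all 9458 genes tested. Without Kdm5b_WT replicate 2 the count of higher genes was 2. The genes not called were Gins4, Fen1, Tk1 and Ccne1, at 0.999 to 1.10 times EV. With 2 libraries per group the spread was shared over the 3 groups of the table.

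All 10 licensing genes fell with Kdm5b_WT, from 0.748 times EV for Mcm7 to 0.912 for Cdt1. Mcm3 was at 11368 and 11501 in EV and at 8657 and 8620 with Kdm5b_WT, a gap far wider than either pair (log2 difference -0.38 ± 0.02, adjusted p = 5.49e-14, limma). Mcm7 was at 11058 and 11676 against 8492 and 8522. Orc6, an origin recognition subunit, was at 0.790 and Cdc6 at 0.822. Cdc45 went the other way, at 1601 and 1706 in EV and 1852 and 1892 with Kdm5b_WT, a ratio of 1.13 with no overlap (adjusted p = 0.000307, limma). Gins1, Gins2 and Gins3 fell to 0.854, 0.886 and 0.880, and Gins3 lost its call when any 1 library of the comparison was left out.

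Pcna was at 11501 and 11510 in EV and at 9112 and 9405 with Kdm5b_WT (ratio 0.805, adjusted p = 3.00e-11, limma), and all 5 RFC genes fell. Pola1 was the lowest of its group, at 3473 and 3300 against 2686 and 2539 (ratio 0.771), followed by Prim1 at 0.777 and Prim2 at 0.798, the primase subunits. Lig1 was at 5051 and 5116 against 3725 and 3774 (ratio 0.738, adjusted p = 2.79e-13, limma). Fen1 did not share that fall, at 3907 and 3880 against 3925 and 3856, with an interval of -0.05 to 0.05 for the log2 difference.

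Rrm2 (GRCm38 chr12:24708241-24714146, plus strand) changed the most of the 40. It was at 6294 and 6365 in EV and at 4124 and 4136 with Kdm5b_WT, a ratio of 0.653 (log2 difference -0.56 ± 0.02, adjusted p = 7.69e-17, limma). Tyms fell to 0.700 and Rrm1 to 0.847, while Tk1 was at 2702 and 2800 against 2768 and 2839, overlapping. Chaf1b was at 1206 and 1191 against 941 and 1029 (ratio 0.822), and E2f1 at 1124 and 1149 against 938 and 961 (ratio 0.835, adjusted p = 3.45e-05, limma). Ccne2 fell to 0.790, while Ccne1 was at 656 and 640 against 742 and 680, not called (adjusted p = 0.0653, limma).

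The demethylase-dead mutant was compared with the same EV libraries. With Kdm5b_H499A 23 of the 40 genes were lower than in EV and 1, Ccne1, was higher, against 26.9% of all genes lower and 22.7% higher (49.6% in either direction), and the median log2 difference was -0.08. Without EV replicate 2 the count of higher genes was 2. Mcm7 was at 9231 and 9226, under 11058 and 11676 in EV (ratio 0.812, adjusted p = 2.53e-10, limma). Gins3 was the only helicase activation gene called, at 348 and 342 against 408 and 396, and its call was lost without EV replicate 1 or either Kdm5b_H499A library. Rfc5 was at 1937 and 1946 against 2474 and 2458 (ratio 0.787), and Pold1, the catalytic subunit of polymerase delta, at 2640 and 2691 against 3421 and 3378.

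That ratio of Pold1, 0.784, was the lowest of the 40 with the mutant (adjusted p = 4.73e-10, limma). Lig1 was at 4566 and 4513 (ratio 0.893) and Tyms at 1591 and 1581 against 1860 and 1876 (ratio 0.849), both under EV in each library. Rrm2 was at 6494 and 6511, above 6294 and 6365 in EV, a ratio of 1.03 that was not called (adjusted p = 0.216, limma). Neither Chaf1a nor Chaf1b was called, at 1.01 and 0.976. Ccne1 was at 753 and 818 against 656 and 640, a ratio of 1.21 (adjusted p = 0.000469, limma), and E2f1 fell to 0.867.

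**Figure D5:**
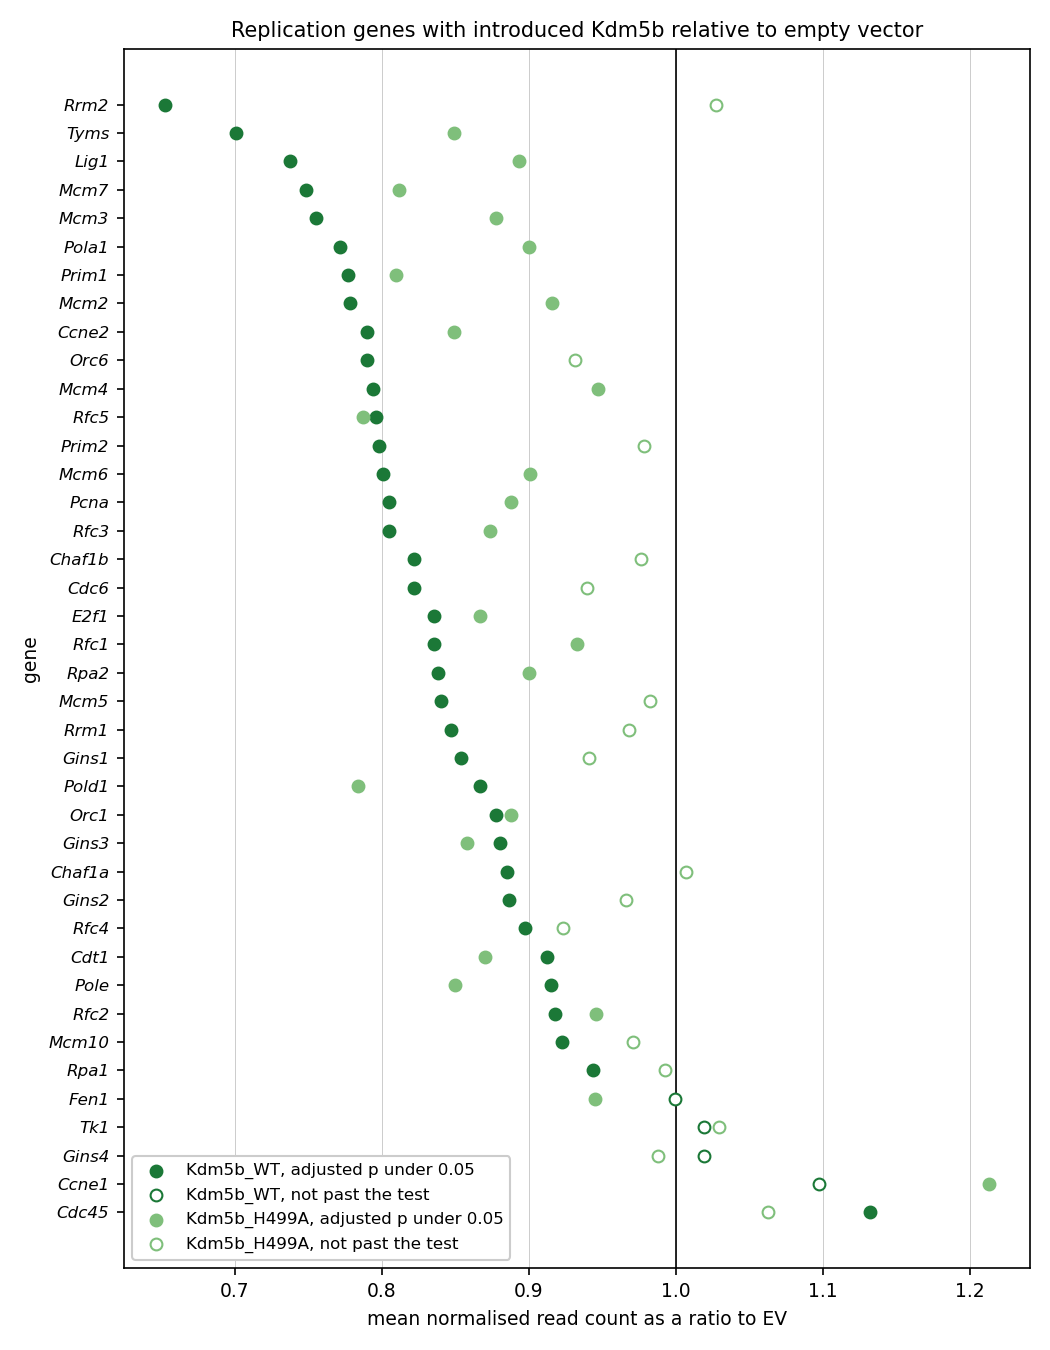
Mean normalised read count with Kdm5b_WT (dark points) and Kdm5b_H499A (light points) as a ratio to EV (horizontal axis) for the 40 genes (vertical axis), 2 libraries per group, filled where adjusted p was under 0.05. Rrm2 lies at 0.653 with Kdm5b_WT and 1.03 with Kdm5b_H499A, while Rfc5 lies at 0.796 and 0.787.

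Compared directly, Kdm5b_WT was lower than Kdm5b_H499A for 23 genes and higher for 3, against 26.3% of all genes lower and 28.2% higher (54.4% in either direction), with a median log2 difference of -0.09. The higher genes were Pold1 (ratio 1.11), Pole (1.08) and Fen1 (1.06), and without Kdm5b_H499A replicate 2 only Pold1 of them passed. Rrm2 differed the most, at 4124 and 4136 against 6494 and 6511 (ratio 0.635, log2 difference -0.59 ± 0.02, adjusted p = 3.92e-17, limma). All 6 ring subunits were lower with the wild type, among them Mcm2 at 7415 and 7337 against 8804 and 8548 (ratio 0.850, adjusted p = 1.69e-08, limma). Gins2 (0.918), Pcna (0.906), Prim2 (0.815), Lig1 (0.826) and Chaf1a (0.879) were lower with no overlap of the libraries. Gins2 lost its call without Kdm5b_H499A replicate 1 or 2 or Kdm5b_WT replicate 1, and Mcm7 lost its own under quantile normalisation.

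Several genes did not differ between the Kdm5b forms past the test. The log2 interval was -0.04 to 0.07 for Rfc5, -0.12 to 0.03 for Prim1, -0.09 to 0.07 for Orc1 and -0.07 to 0.04 for Tk1. Ccne1 was lower with the wild type (ratio 0.905, adjusted p = 0.0449, limma), a call lost without Kdm5b_H499A replicate 2 or Kdm5b_WT replicate 2. Kdm5b RNA was 4.80 times higher in Kdm5b_WT than in Kdm5b_H499A, so the amount of Kdm5b and its activity cannot be told apart in these differences.

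Of the 37 further replication factors 23 were lower and 1 higher with Kdm5b_WT, and 18 lower and none higher with Kdm5b_H499A. Among all genes tested, 32.4% were lower and 29.8% higher with Kdm5b_WT, and 26.9% lower and 22.7% higher with Kdm5b_H499A. Ssrp1, a subunit of the histone chaperone FACT, was at 0.755 times EV with Kdm5b_WT, and the fork protection gene Tipin at 0.751 with Kdm5b_WT and 0.837 with Kdm5b_H499A. Pold4, the smallest subunit of polymerase delta, rose to 1.64 times EV with Kdm5b_WT. Of the 17 nucleotide and chromatin genes 14 were lower and 1 higher with Kdm5b_WT and 9 lower and 3 higher with Kdm5b_H499A. The dUTPase gene Dut, the histone chaperone Nasp and Uhrf1 were at 0.734, 0.734 and 0.739 times EV with Kdm5b_WT.

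Among 28 tested genes of G1 to S control, 17 were lower and 8 higher with Kdm5b_WT, and 14 lower and 4 higher with Kdm5b_H499A. The share higher with Kdm5b_WT, 28.6%, was near the 29.8% of all genes, and 60.7% were lower against 32.4%. With Kdm5b_H499A 26.9% of all genes were lower and 22.7% higher. The D-type cyclin Ccnd1 had 3634 to 3665 normalised counts in EV, 1799 to 1944 with Kdm5b_WT and 2163 to 2319 with the mutant (ratios 0.513 and 0.614). Cdkn2a was at 61.1 and 61.5 in EV, 315 and 318 with Kdm5b_WT and 84.5 and 87.8 with Kdm5b_H499A, ratios of 5.17 and 1.40. Only the Kdm5b_WT libraries stood over the filter of 145 normalised counts. Cdkn2a was thus tested only because it was high there, so no p-value is given, and the ratio of 1.40 compares levels under the filter. Cdkn1a, which inhibits Cdk2, rose to 1.43 and 1.67 times EV. Monocyte and macrophage markers (13 of 14 in the table, none at 0) summed to 22438 and 23276 in EV, 37645 and 37786 in Kdm5b_H499A, and 56850 and 59411 in Kdm5b_WT. Of the 9 that were tested 8 were higher with Kdm5b_WT and 7 with Kdm5b_H499A, and 1 was lower with each. Erythroid and megakaryocyte markers (6 of 10 in the table) summed to 10532 to 10842 in EV, 7643 to 7836 in Kdm5b_H499A and 6385 to 6397 in Kdm5b_WT. Only 1 of these 6 passed the filter, and it was at 0.599 times EV with Kdm5b_WT. The sums therefore do not describe that list as a whole. The part of these lists in the replication values was not tested.

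Across the experiments, Mcm2, Mcm4 and Mcm7 were lower in all 5 comparisons with a control, of which the inhibitor pair and the Kdm5b pair each share their control libraries. With shKdm5b the call of Mcm7 was lost without any 1 shEV library or without shKdm5b replicate 2 or 3, and that of Mcm2 without shEV replicate 1 or 2. With Kdm5b_H499A the call of Mcm4 was lost without EV replicate 1, without either Kdm5b_H499A library, under quantile normalisation and with eBayes lacking its trend. Mcm7 was at 0.641 times control with UNC1999, 0.878 with JQEZ5, 0.883 with shKdm5b, 0.748 with Kdm5b_WT and 0.812 with Kdm5b_H499A. Between the knockdown and Kdm5b_WT, which share no libraries, 9 genes were lower in both, which is 81.8% of the 11 lower with shKdm5b and 25.7% of the 35 lower with Kdm5b_WT. As 35 of all 40 were lower with Kdm5b_WT, a share of that size is no sign of a link. Rrm2 and Ccne2 were lower with Kdm5b_WT and higher with shKdm5b. Rrm2 stood at 0.653 and 1.11 times its controls, and Ccne2 at 0.790 and 1.40. With shKdm5b the call of Rrm2 was lost without any 1 shEV library and with the replicate block. Both genes were also lower with UNC1999, and Ccne2 was lower with Kdm5b_H499A, at 0.849 times EV. No gene of the 40 went uncalled in all 5. Of all genes tested, 47.9% were called with UNC1999, 23.6% with JQEZ5, 32.5% with shKdm5b, 62.2% with Kdm5b_WT and 49.6% with Kdm5b_H499A. How many of all genes were uncalled in all 5, or lower in all 5, was not counted. Neither count is thus read as a trait of the 40.

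Calls were also counted by the presence of an exact E2F word in the 250 bases before the start. With UNC1999 all 8 genes with a match and 23 of the 24 without a match were lower, and with Kdm5b_WT 8 of 8 and 20 of 24. With JQEZ5 the order was the other way, 3 of 8 and 11 of 24, with median log2 differences of -0.09 and -0.12. With Kdm5b_H499A the counts were 6 of 8 and 13 of 24. The lower share of all genes tested was 24% with UNC1999, 32.4% with Kdm5b_WT, 10.5% with JQEZ5 and 26.9% with Kdm5b_H499A. With shKdm5b 4 of 8, namely Cdc6, Mcm5, Mcm7 and Pola1, and 5 of 24 were lower, where 17.4% of all genes tested were lower. Of these 4 Cdc6 alone kept its call whichever library was left out. Mcm5 and Mcm7 lost theirs without any 1 shEV library, and Pola1 without shEV replicate 2 or 3. Of the 5 Mcm2, Cdc45 and Fen1 also lost theirs when some single libraries were left out. The median log2 difference with shKdm5b was -0.13 for the 8 and -0.02 for the 24. The 8 genes with no promoter in the table were lower in 8 cases with UNC1999, 2 with JQEZ5, 2 with shKdm5b, 7 with Kdm5b_WT and 4 with Kdm5b_H499A. These are descriptions of small groups, and no test compared them.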

How the data were processed

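RNA was sequenced from mouse AML lines with TruSeq or NEBNext kits, per the labels' protocols (the kit of each library is not given in the sources used here). Per the submitters' processing notes, the authors used STAR 2.4.2, Salmon 0.1.19 and DESeq2 1.38.2 with mm10 (GRCm38.p4). The deposited values are log2 after variance stabilisation. Undoing that transformation gave whole reads (100% of values under 2000 reads, within 0.05), and from them depth and normalised counts. Each table was fitted with limma 3.58.1 under R 4.3.3, with a mean for every group and a trended eBayes prior. Genes entered if they stood at least 1 log2 unit over the table's lowest value in 3, 3 and 2 libraries or more (inhibitor, knockdown and overexpression), equal to 59.0, 86.6 and 145 normalised counts. This left 10694, 10810 and 9458 genes, over which p-values were adjusted, with calls under 0.05. The fit was tested on simulated data. Library values are given for the gene with the lowest adjusted p in each role group and others where needed. Up to 3 genes per further list are named. The members and all lists were chosen with earlier results of these data known. Exon lengths and overlaps came from GENCODE M21.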

Additional observations from a re-analysis of the deposited data

How the results depend on the processing

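The fits were repeated with quantile normalisation or centring on the median, with the filter removed or raised to 2 log2 units, with eBayes robust or lacking its trend, with only the 2 groups compared, the replicate number as a block, each library left out, and voom on the recovered reads. No called gene changed direction. Called genes kept in every setting were 37 of 39 (UNC1999), 11 of 16 (JQEZ5), 34 of 38 (UNC1999 against JQEZ5), 6 of 13 (shKdm5b), 30 of 36 (Kdm5b_WT), 16 of 24 (Kdm5b_H499A) and 18 of 26 (Kdm5b_WT against Kdm5b_H499A).

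Leaving out 1 library gave, for lower genes, 38 to 39, 12 to 14, 35 to 38, 5 to 16, 31 to 33, 17 to 19 and 18 to 23 in the same order. For higher genes it gave 1 to 2 with shKdm5b, 1 to 2 with Kdm5b_WT, 1 to 2 with Kdm5b_H499A and 1 to 4 between the Kdm5b forms. The cause was not tested. Higher genes were 2 with Kdm5b_H499A when only the 2 groups compared were fitted. Same-numbered libraries did not deviate together (r of -0.08 to 0.16, -0.15 to 0.22 and -0.05 to -0.01 in the inhibitor, knockdown and overexpression tables), so the numbers were not taken as pairs. With the replicate block 1 gene was higher with shKdm5b in place of 2, and 10 lower in place of 11.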

Other observations

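Genes that act when replication stalls, and genes of G2 and M phase, were read from the same fits. Of 20 genes of replication stress and repair 13 fell with UNC1999 and 5 with JQEZ5, and none rose with either. Of all genes tested, 24% and 10.5% were lower. The mismatch repair gene Msh6 was at 0.699 times DMSO with UNC1999 and 0.819 with JQEZ5. With shKdm5b 2 rose and 5 fell, against 15% and 17.4% of all genes. Wee1, the kinase that restrains Cdk1, was among those that fell, at 0.742 times shEV. With Kdm5b_WT 8 fell and none rose, with the helicase Blm at 0.770 times EV, and with Kdm5b_H499A 12 fell and none rose. Of all genes, 32.4% fell and 29.8% rose with Kdm5b_WT, and 26.9% fell and 22.7% rose with Kdm5b_H499A. Between the Kdm5b forms 5 of the 20 were higher and 2 lower with the wild type, no larger a share than the 28.2% and 26.3% of all genes. Brca1 and Brca2 were each at 1.19 times the mutant.

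The G2 and M list holds 25 genes, of which 25 were lower with UNC1999 and 16 with JQEZ5, where 24% and 10.5% of all genes tested were lower. The mitotic checkpoint gene Bub1b was at 0.620 and 0.839 times DMSO and the topoisomerase Top2a at 0.685 and 0.814. With shKdm5b 11 of the 25 rose and none fell, while the 40 replication genes counted 2 higher and 11 lower in the same libraries and 15% of all genes tested were higher and 17.4% lower. Nusap1, a spindle protein, was at 1.49 times shEV (adjusted p = 0.000434, limma), the cyclin Ccnb2 at 1.30 and the checkpoint gene Mad2l1 at 1.23. With Kdm5b_WT 3 rose and 11 fell, against 29.8% and 32.4% of all genes. With Kdm5b_H499A 6 rose and 7 fell, close to the 22.7% and 26.9% of all genes, with Aurka at 1.21 times EV.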
